A study of Arabidopsis thaliana with 9 samples.

Results

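Plants make chlorophyll, heme and the light-sensing bilins along a single tetrapyrrole pathway in the plastid. Its first committed product is 5-aminolevulinic acid (ALA), which is carried to protoporphyrin IX. There the pathway forks. Insertion of magnesium leads to chlorophyll, and insertion of iron leads to heme and, through heme oxygenase, to phytochromobilin, the chromophore of the phytochromes. The pathway is kept in step with light because free intermediates such as protochlorophyllide are phototoxic. Phytochrome-interacting factors (PIFs) are known as repressors of several of its genes in dark-grown *Arabidopsis* seedlings. The genes described here are 31 nuclear loci of *Arabidopsis thaliana*, chosen by locus identifier out of the 33602 loci in the expression tables. They hold 4 genes of ALA formation, 6 genes between ALA and protoporphyrin IX, 13 genes of the magnesium branch, 4 genes of the heme and bilin branch, and a last group of 4 with the feedback regulator *FLU*, the carotenoid gene *PSY* and the transcription factors *GLK1* and *GLK2*.

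Polyadenylated RNA was sequenced from whole 4-d-old seedlings of *bbx11-1*, of *pif4-2* and of the wild type Col-0, with 3 biological replicates of each genotype. *bbx11-1* is a mutant of *BBX11*, which encodes a B-box protein. *pif4-2* is a mutant of *PIF4*, which encodes a phytochrome-interacting bHLH factor, and both lines are in the Col-0 background. All seedlings had grown in constant red light of 94 μmol/m2/s on a medium with sucrose, so that no group was in darkness or in white light. Each mutant is represented by 1 allele. The comparison asks which transcripts depend on BBX11, on PIF4 or on both in red light, and the same 3 Col-0 libraries serve both mutants. The sample labels name these Col-0 libraries as the wild-type control for BBX11, and *pif4-2* has no wild type of its own. An effect of *pif4-2* and a separate handling of its libraries therefore cannot be told apart.

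The values are FPKM (fragments mapped to a gene, scaled to its length and to the size of the library), which can be set side by side between genes because they are divided by gene length. The spacing of the lowest values corresponded to 16.2 to 22.2 M reads per library. *PIF4* mRNA was at 31, 28.9 and 28.6 FPKM in *bbx11-1*, 16.9, 16.2 and 17.5 FPKM in *pif4-2* and 35.2, 30.1 and 25.7 FPKM in Col-0, so that the transcript was reduced in *pif4-2* but present. *BBX11* mRNA was at 10.7, 9.39 and 7.66 FPKM in *bbx11-1*, 17.04, 16.4 and 15.7 FPKM in *pif4-2* and 15.7, 16.4 and 78.2 FPKM in Col-0. The third Col-0 library thus held a *BBX11* level far above that of the other Col-0 libraries. On the first principal component (32.3% of the variance) the *pif4-2* libraries lay at 20.8 to 23.2. All libraries of *bbx11-1* and Col-0 lay at −30.0 to −0.549, and the source of this separation was not tested. The first libraries of *bbx11-1* and of Col-0 lay apart from the other libraries of their genotypes on the second principal component. Results are given with and without these libraries where they depend on them. The 3 leaf markers *RBCS1A*, *LHCB1.3* and *RCA* summed to 35624 to 40403 FPKM in *bbx11-1*, 36749 to 39131 FPKM in *pif4-2* and 33662 to 42173 FPKM in Col-0. The 3 root markers *PIN2*, *COBL9* and *PHT1;1* summed to 22.1 to 35.6, 35.6 to 36.8 and 28.9 to 37.6 FPKM in the same order of genotypes. The 3 seed storage markers *CRA1*, *CRU3* and *OLEO1* summed to 31.4 to 42.3 FPKM in *bbx11-1*, 17.1 to 26.1 FPKM in *pif4-2* and 20.3 to 39.9 FPKM in Col-0. None of these markers was at 0 in any library, and their part in the results was not tested. In whole seedlings, fewer cells of a type and less RNA per cell cannot be told apart.

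The promoters of 3 of these genes are shown first, because they belong to the single gene that passed the test (*FC1*), to the gene with the lowest log2 fold change in *pif4-2* against Col-0 among the 30 tested (*CAO*), and to the gene with the highest in *bbx11-1* against *pif4-2* among the 30 tested (*GLK2*). Each line gives the 250 bases before the annotated transcript start, 5′ to 3′ on the strand of the gene, from the RefSeq TAIR10.1 genome. The windows are chr5:9096201-9096450 on the plus strand for *FC1*, chr1:16851272-16851521 on the minus strand for *CAO*, and chr5:17798012-17798261 on the plus strand for *GLK2*. Capitals mark the G-box CACGTG and the E-box CATGTG, both of them letter patterns that PIFs are known to bind.
FC1: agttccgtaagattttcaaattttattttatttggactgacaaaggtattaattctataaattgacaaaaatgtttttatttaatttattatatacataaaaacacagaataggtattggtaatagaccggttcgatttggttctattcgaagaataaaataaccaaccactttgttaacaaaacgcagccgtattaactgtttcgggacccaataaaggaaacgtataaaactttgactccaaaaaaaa
CAO: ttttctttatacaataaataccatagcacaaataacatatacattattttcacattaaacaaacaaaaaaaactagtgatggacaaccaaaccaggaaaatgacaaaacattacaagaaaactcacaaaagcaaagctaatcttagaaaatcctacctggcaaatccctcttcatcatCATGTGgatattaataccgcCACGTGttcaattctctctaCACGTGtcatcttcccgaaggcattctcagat
GLK2: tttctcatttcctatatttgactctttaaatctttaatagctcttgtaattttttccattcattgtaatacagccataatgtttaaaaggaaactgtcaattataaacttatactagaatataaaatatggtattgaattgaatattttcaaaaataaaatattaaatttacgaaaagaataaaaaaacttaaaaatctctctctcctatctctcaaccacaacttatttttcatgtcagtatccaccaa

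The *CAO* window held G-boxes that began 52 and 32 bases before the start and 1 CATGTG that began 72 bases before it, whereas the windows of *FC1* and *GLK2* held neither pattern. The window of *PORC*, not shown, held neither pattern as well. *PORC* had the lowest log2 fold change of the tested genes in *bbx11-1* against Col-0 and against *pif4-2*. The search covered both strands of the 250-base windows of all 31 genes and of 27443 protein-coding genes. A G-box was present in 4 of the 31 windows (*CRD1*, *CAO*, *FC2* and *HY2*), or 12.9%, against 6.49% of all windows. CATGTG was present in 2 of 31 (*CHLI2* and *CAO*), or 6.45%, against 11.1%. The pattern CCAATC was present in 3 of 31 (*GSA2*, *GUN4* and *PORB*), or 9.68%, against 10.2%. The I-box GATAAG was present in 3 of 31 (*HEMF1*, *PORA* and *GLK1*), or 9.68%, against 12.3%. These matches describe letters in a window and do not show that a factor binds there. In 14 of the 31 windows the annotation also places part of a neighbouring gene, and *FC1*, *CAO* and *GLK2* are not among those.

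Transcript levels of the pathway spanned a wide range that was shared by the genotypes. In Col-0 the most abundant of the 31 transcripts was *CRD1*, which encodes a subunit of the cyclase that forms the fifth ring of chlorophyll, with 891 ± 22.3 FPKM (SD, n = 3, as for all means below). *CHLH*, the large subunit of magnesium chelatase, followed with 562 ± 32.8 FPKM. Next came *CHLI1* with 324 ± 17.5 FPKM, *CHLM* with 295 ± 25.5 FPKM, *PORB* with 283 ± 12.8 FPKM and *HEMA1* with 233 ± 29.7 FPKM. At the other end stood *FC1* with 25.1 ± 1.83 FPKM, *HEMA2* with 17.3 ± 0.801 FPKM, *HY2* with 10.2 ± 0.607 FPKM and *PORA* with 0.983 ± 0.482 FPKM. In all, 16 of the 31 genes averaged at least 100 FPKM in Col-0, and *CRD1* was 87.7-fold above *HY2*, the lowest of the genes that passed the filter on low values. *CRD1* and *CHLH* were each separated from their neighbours in this order in every Col-0 library. By contrast 19 of the 30 neighbouring pairs overlapped, as *CHLI1* with *CHLM* and *CHLM* with *PORB* did, so the order within such pairs is not resolved by these libraries.

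**Figure D1:**
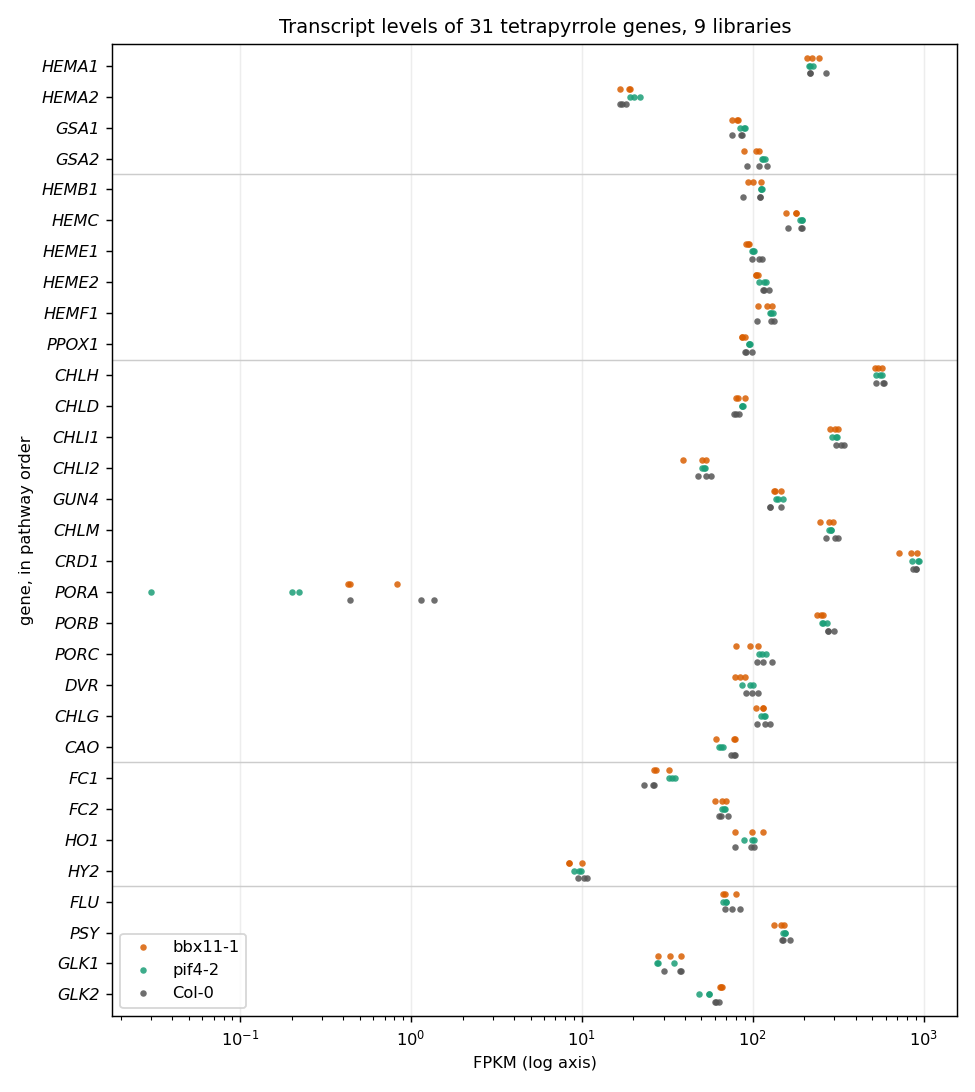
FPKM of the 31 genes in each of the 9 libraries on a log axis, in pathway order from top to bottom, with 1 point per library and the genotypes *bbx11-1*, *pif4-2* and Col-0 in separate colours; grey lines divide the groups of steps. The points of the genotypes lie close together for 30 genes between about the level of *HY2* (10.2 ± 0.607 FPKM in Col-0) and that of *CRD1* (891 ± 22.3 FPKM in Col-0), and *PORA* lies apart at 0.03 to 1.36 FPKM.

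The main result for the pathway was that the transcripts of its 30 tested genes differed little between the mutants and the wild type. Expression was compared with limma on log2(FPKM + 0.5), with p-values adjusted by the Benjamini-Hochberg method over the 19169 genes whose mean reached 1 FPKM in some genotype, and 30 of the 31 genes were among these. The exception was *PORA*, whose mean was below 1 FPKM in every genotype (0.567 in *bbx11-1*, 0.15 in *pif4-2* and 0.983 in Col-0). When both an adjusted p under 0.05 and a 2-fold difference were asked for, 0 of the 30 genes were called in *bbx11-1* against Col-0 (0.146% of all tested genes), 0 in *pif4-2* against Col-0 (1.13%) and 0 in *bbx11-1* against *pif4-2* (0.636%). With the adjusted p alone, limma called 0 of 30 in *bbx11-1* against Col-0 (0.443% of all tested genes), 1 of 30 in *pif4-2* against Col-0 (4.84%), which was *FC1*, and 0 of 30 in *bbx11-1* against *pif4-2* (2.32%). An F test over the 3 genotypes called 0 of 30 (4.65% of all tested genes). The count by adjusted p alone in *bbx11-1* against Col-0 also stayed at 0 of 30 when any 1 of the 9 libraries was left out, including the third Col-0 library.

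The size of the differences could be bounded for the tested genes, which leave out *PORA*. The 95% intervals of all 30 genes lay within a 2-fold change in each comparison, as did those of 96.1% of all tested genes in *bbx11-1* against Col-0, 93.9% in *pif4-2* against Col-0 and 94.6% in *bbx11-1* against *pif4-2*. Within a 1.5-fold change lay 30 of 30 intervals in *bbx11-1* against Col-0 (81.6% of all tested genes), 29 of 30 in *pif4-2* against Col-0 (77.5%) and 30 of 30 in *bbx11-1* against *pif4-2* (78.1%), *FC1* in *pif4-2* being the exception. The median log2 fold change of the 30 genes was −0.08 in *bbx11-1* against Col-0, where that of all tested genes was 0.00, and −0.02 in *pif4-2* against Col-0, where that of all tested genes was also −0.02. In *bbx11-1* 6 of the 30 values were above 0, against 51.1% of all tested genes, in *pif4-2* 13 of 30 were, against 44.9%, and in *bbx11-1* against *pif4-2* 6 of 30 were, against 53.8%. Without adjustment, limma's p was below 0.05 for 5 of 30 genes in *bbx11-1* against Col-0 (10.7% of all tested genes), for 4 in *pif4-2* against Col-0 (16.6%) and for 3 in *bbx11-1* against *pif4-2* (14.9%).

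**Figure D2:**
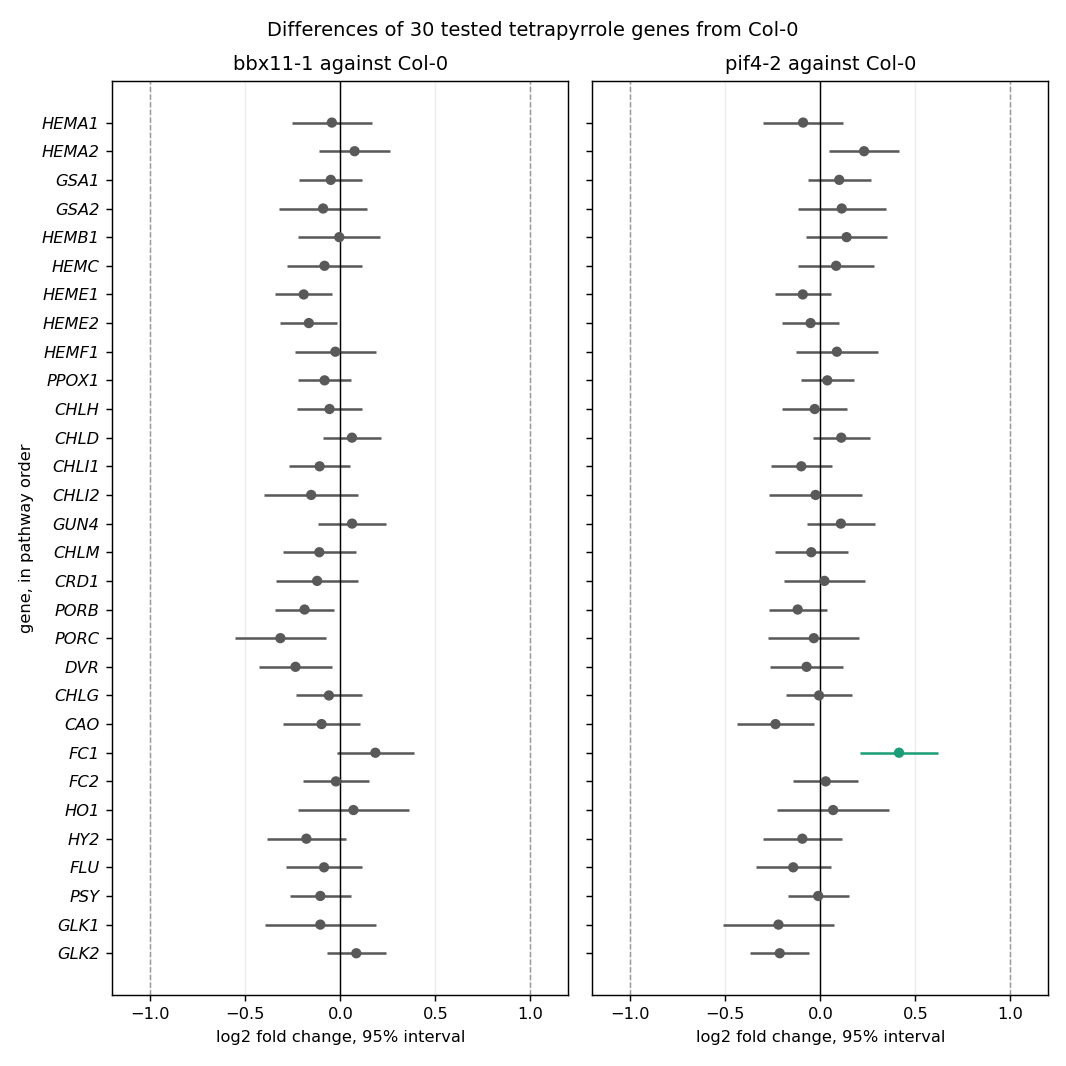
Log2 fold changes of the 30 tested genes on the log2(FPKM + 0.5) scale with limma's 95% intervals, *bbx11-1* against Col-0 on the left and *pif4-2* against Col-0 on the right; dashed lines mark a 2-fold change and the coloured point has an adjusted p below 0.05. All intervals lie inside the dashed lines, and *FC1* in *pif4-2*, at 0.41, is the coloured point.

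*FC1* encodes ferrochelatase 1, which inserts iron into protoporphyrin IX at the start of the heme branch. Of the 30 genes tested, *FC1* was the single one that passed limma's adjusted p in a mutant against Col-0. The gene (AT5G26030) lies at chr5:9096451-9099185 on the plus strand. Its mRNA was at 27.1, 26.6 and 32.4 FPKM in *bbx11-1* and 33.7, 35.03 and 32.1 FPKM in *pif4-2*, against 23.04, 25.98 and 26.4 FPKM in Col-0. Every *pif4-2* library was above every Col-0 library, and every *bbx11-1* library was as well, although the third *bbx11-1* library lay among those of *pif4-2*. The log2 fold change in *pif4-2* was 0.41 ± 0.09 (SE), or 1.33-fold with a 95% interval of 1.16 to 1.53. Its adjusted p was 0.0263 by limma. In *bbx11-1* the log2 fold change was 0.18 with a 95% interval of −0.02 to 0.39 and an adjusted p of 0.521 by limma. Between *bbx11-1* and *pif4-2* the difference was −0.23 with an adjusted p of 0.2697 by limma, so that the mutants were not shown to differ in *FC1*.

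The call for *FC1* in *pif4-2* was close to its threshold. The adjusted p by limma was 0.0768 without the first Col-0 library, 0.1004 without the first, 0.115 without the second and 0.06596 without the third *pif4-2* library. It was 0.0462 without the third Col-0 library, which had the high *BBX11* level. The log2 fold change stayed between 0.35 and 0.45 when each of the 9 libraries was left out in turn. The annotation places 2 other loci over *FC1*. AT5G26038, on the same strand over 126 bases, was listed at 0 FPKM in every library. AT5G26040, on the other strand over 34 bases, stood at 3.79 to 5.06 FPKM. Reads of an overlap on the other strand could not be assigned without the strand setting of the counting, which is not given in the sources used here. For an overlap on the same strand, that setting would not tell the loci apart. In all, 16 of the 31 genes overlap another annotated locus.

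*FC2*, the second ferrochelatase, stood at 59.97, 66.4 and 69.9 FPKM in *bbx11-1*, 68.7, 66.2 and 68.2 FPKM in *pif4-2* and 63.1, 64.7 and 71.6 FPKM in Col-0. The groups overlapped in both comparisons with Col-0. The log2 fold change was −0.02 in *bbx11-1* and 0.03 in *pif4-2*, with 95% intervals of −0.20 to 0.15 and −0.14 to 0.20. The share of *FC1* in the summed FPKM of the ferrochelatases was 30.5% ± 1.66 in *bbx11-1* and 33.2% ± 1.3 in *pif4-2*, against 27.4% ± 1.04 in Col-0. The exact permutation test on these shares, two-sided, gave p = 0.1 for *pif4-2* against Col-0, the smallest p that 3 against 3 libraries allow, and p = 0.2 for *bbx11-1* against Col-0. Over the 18 such tests in 7 sets of paralogous genes the adjusted p of the exact test was 0.6 for *pif4-2* and 0.72 for *bbx11-1*.

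Further along the heme branch, *HO1* encodes the heme oxygenase that opens the heme ring and *HY2* the enzyme that makes phytochromobilin. *HO1* averaged 97.5 ± 17.96 FPKM in *bbx11-1*, 96.4 ± 6.65 FPKM in *pif4-2* and 92.4 ± 11.95 FPKM in Col-0. Relative to its mean it had the widest spread of the 30 tested genes in *bbx11-1*, where the third library was high and the first low. *HY2* averaged 8.93 ± 0.935 FPKM in *bbx11-1*, 9.47 ± 0.428 FPKM in *pif4-2* and 10.2 ± 0.607 FPKM in Col-0. Neither passed the test, with log2 fold changes of 0.07 and −0.18 in *bbx11-1* and 0.07 and −0.09 in *pif4-2*.

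**Figure D3:**
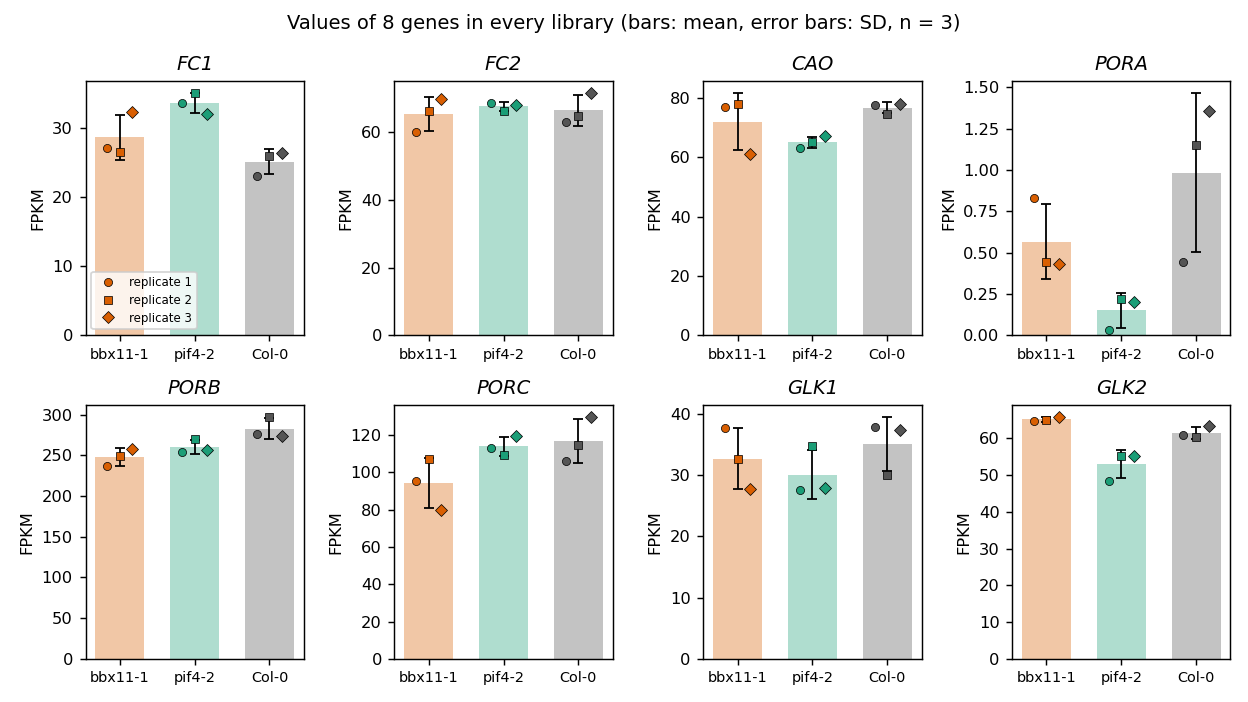
FPKM of 8 genes in every library, with bars for the mean and error bars for the SD (n = 3) of *bbx11-1*, *pif4-2* and Col-0 from left to right, and marker shapes for the replicate number. *FC1* is higher in every *pif4-2* library than in any Col-0 library, *CAO* and *GLK2* are lower in every *pif4-2* library than in any Col-0 library, and the *PORA* panel has an axis far below those of *PORB* and *PORC*.

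ALA formation is the step at which the flow into the pathway is set. *HEMA1*, the main glutamyl-tRNA reductase of green tissue, stood at 244, 223 and 208 FPKM in *bbx11-1*, 226, 215 and 212 FPKM in *pif4-2* and 267, 215 and 216 FPKM in Col-0. *HEMA2*, its weaker expressed paralog, stood at 19.1, 16.7 and 18.9 FPKM in *bbx11-1*, 21.9, 20.1 and 19.2 FPKM in *pif4-2* and 18.2, 16.6 and 17.1 FPKM in Col-0. All *pif4-2* libraries were above all Col-0 libraries for *HEMA2*, with a log2 fold change of 0.23 (95% interval 0.04 to 0.42) and an adjusted p of 0.183 by limma, which does not pass. *HEMA1* accounted for 92.5% ± 0.7 of the summed FPKM of the pair in *bbx11-1*, 91.4% ± 0.266 in *pif4-2* and 93.05% ± 0.52 in Col-0 (exact permutation p against Col-0 of 0.5 and 0.1, in the order of the mutants).

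*GSA1* and *GSA2* encode the aminomutase that completes ALA. *GSA1* stood at 75.3, 81.6 and 80.5 FPKM in *bbx11-1*, 84.1, 89.1 and 90.1 FPKM in *pif4-2* and 74.95, 85.99 and 85.2 FPKM in Col-0. *GSA2* was at 88.7, 108 and 105 FPKM in *bbx11-1*, 113, 115 and 118 FPKM in *pif4-2* and 92.01, 121 and 109 FPKM in Col-0. For both genes the first library was the lowest in *bbx11-1* and in Col-0, and no difference from Col-0 passed the test. *GSA1* made up 44.1% ± 1.55 of the pair in *bbx11-1*, 43.2% ± 0.465 in *pif4-2* and 43.5% ± 1.71 in Col-0. The median log2 fold change of the 4 genes of ALA formation was −0.05 in *bbx11-1* and 0.11 in *pif4-2*.

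The 6 genes between ALA and protoporphyrin IX were all a little lower in *bbx11-1* than in Col-0 by their fitted values, and 0 of 6 passed the test (0.443% of all tested genes). Their log2 fold changes in *bbx11-1* ran from −0.19 (*HEME1*) to −0.01 (*HEMB1*) with a median of −0.08. Those in *pif4-2* ran from −0.09 (*HEME1*) to 0.14 (*HEMB1*) with a median of 0.06. *HEMB1*, ALA dehydratase, averaged 101 ± 8.93 FPKM in *bbx11-1*, 112 ± 0.629 FPKM in *pif4-2* and 102 ± 12.9 FPKM in Col-0. *HEMC*, which links porphobilinogen molecules into a chain, averaged 171 ± 13.8 FPKM in *bbx11-1*, 192 ± 2.83 FPKM in *pif4-2* and 182 ± 18.97 FPKM in Col-0. The *pif4-2* libraries were the tightest of the genotypes for both genes.

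*HEME1* and *HEME2* encode uroporphyrinogen decarboxylase. *HEME1* stood at 94.7, 93.6 and 91.5 FPKM in *bbx11-1*, 99.9, 101 and 98.9 FPKM in *pif4-2* and 113, 108 and 99.2 FPKM in Col-0. *HEME2* stood at 105, 108 and 104 FPKM in *bbx11-1*, 108, 119.7 and 116 FPKM in *pif4-2* and 116, 125 and 115 FPKM in Col-0. For both paralogs the *bbx11-1* libraries lay below all Col-0 libraries without overlap, with log2 fold changes of −0.19 and −0.17 and adjusted p of 0.313 and 0.405 by limma. The share of *HEME1* in the pair was 46.9% ± 0.484 in *bbx11-1*, 46.7% ± 1.23 in *pif4-2* and 47.4% ± 1.65 in Col-0. *HEMF1*, coproporphyrinogen oxidase, averaged 119 ± 11.3 FPKM in *bbx11-1*, 129 ± 2.83 FPKM in *pif4-2* and 122 ± 14.2 FPKM in Col-0. *PPOX1*, protoporphyrinogen oxidase, averaged 87.7 ± 1.99 FPKM in *bbx11-1*, 95.3 ± 0.444 FPKM in *pif4-2* and 93.01 ± 4.49 FPKM in Col-0.

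At the fork to chlorophyll, magnesium chelatase is built of the subunits CHLH, CHLD and CHLI, with GUN4 as its activator. None of these 5 genes passed the test in any of the 3 comparisons. It called 0.443% of all tested genes in *bbx11-1* against Col-0, 4.84% in *pif4-2* against Col-0 and 2.32% in *bbx11-1* against *pif4-2*. *CHLH* averaged 540.4 ± 25.3 FPKM in *bbx11-1*, 551 ± 22 FPKM in *pif4-2* and 562 ± 32.8 FPKM in Col-0. *CHLD* averaged 83.7 ± 5.29 FPKM in *bbx11-1*, 86.5 ± 0.495 FPKM in *pif4-2* and 80.1 ± 2.98 FPKM in Col-0. *GUN4* averaged 138 ± 7.04 FPKM in *bbx11-1*, 143 ± 7.296 FPKM in *pif4-2* and 133 ± 11.5 FPKM in Col-0. The mRNA of the large subunit was thus several times as abundant as that of CHLD in each genotype.

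*CHLI1*, the main gene of the small subunit, stood at 284, 304 and 315 FPKM in *bbx11-1*, 309, 292 and 306 FPKM in *pif4-2* and 305, 339.6 and 328 FPKM in Col-0. *CHLI2* stood at 38.9, 50.5 and 53.4 FPKM in *bbx11-1*, 52.8, 51.7 and 50.5 FPKM in *pif4-2* and 47.9, 56.8 and 53.4 FPKM in Col-0. *CHLI1* made up 86.4% ± 1.35 of the pair in *bbx11-1*, 85.4% ± 0.456 in *pif4-2* and 86.04% ± 0.385 in Col-0. The exact permutation test gave p = 0.9 for *bbx11-1* and p = 0.2 for *pif4-2* against Col-0.

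The next enzymes of the branch methylate Mg-protoporphyrin (*CHLM*) and close the fifth ring (*CRD1*). *CHLM* averaged 273 ± 23.05 FPKM in *bbx11-1*, 285 ± 4.601 FPKM in *pif4-2* and 295 ± 25.5 FPKM in Col-0. *CRD1* averaged 823 ± 103 FPKM in *bbx11-1*, 905 ± 45.3 FPKM in *pif4-2* and 891 ± 22.3 FPKM in Col-0. The large SD in *bbx11-1* came with 711 FPKM in the last library, against 915 and 842 FPKM in the others. *DVR*, which reduces the divinyl group, averaged 83.9 ± 5.499 FPKM in *bbx11-1*, 94.1 ± 7.22 FPKM in *pif4-2* and 98.97 ± 7.92 FPKM in Col-0. The *bbx11-1* libraries lay below all Col-0 libraries with a log2 fold change of −0.24 and an adjusted p of 0.343 by limma. *CHLG*, chlorophyll synthase, averaged 111 ± 5.95 FPKM in *bbx11-1*, 115 ± 3.303 FPKM in *pif4-2* and 116 ± 9.902 FPKM in Col-0.

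Protochlorophyllide is reduced by POR enzymes in a reaction that itself needs light. *PORA* mRNA is known to be high in dark-grown seedlings and to disappear in the light, while *PORB* and *PORC* serve green tissue. In these red-light seedlings *PORA* (AT5G54190, chr5:21990864-21992814 on the minus strand) stood at 0.83, 0.44 and 0.43 FPKM in *bbx11-1*, 0.03, 0.22 and 0.2 FPKM in *pif4-2* and 0.44, 1.15 and 1.36 FPKM in Col-0. All *pif4-2* libraries were below all *bbx11-1* and all Col-0 libraries. However, 1 read of this gene is worth 0.0271 to 0.0372 FPKM at the inferred depths, so that the *pif4-2* values correspond to very few reads. The gene did not pass the filter on low values. In the fit without that filter the log2 fold change was −1.14 in *pif4-2* against Col-0 (95% interval −1.75 to −0.54, adjusted p of 0.0728 by limma) and −0.44 in *bbx11-1* against Col-0 (adjusted p of 0.739). The log2(FPKM + 0.5) scale understates changes of so weak a gene.

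*PORB* stood at 237, 249 and 258 FPKM in *bbx11-1*, 254, 270.2 and 256 FPKM in *pif4-2* and 277, 298 and 274 FPKM in Col-0, and both mutants lay below Col-0 without overlap. The log2 fold change of *PORB* was −0.19 in *bbx11-1* (adjusted p of 0.345 by limma) and −0.12 in *pif4-2* (adjusted p of 0.4499), neither of which passes. *PORC* stood at 95.6, 107 and 80.1 FPKM in *bbx11-1*, 113, 109 and 119 FPKM in *pif4-2* and 106, 115 and 129.8 FPKM in Col-0. Its log2 fold change of −0.32 in *bbx11-1* (95% interval −0.55 to −0.08, adjusted p of 0.303 by limma) was the lowest of the 30 genes. The second *bbx11-1* library overlapped Col-0, and the third, which also had the lowest *CRD1* and *CAO*, lay far below the others. *PORB* made up 72.4% ± 3.38 of the summed FPKM of the POR genes in *bbx11-1*, 69.5% ± 1.52 in *pif4-2* and 70.6% ± 2.54 in Col-0. *PORC* made up 27.4% ± 3.36 in *bbx11-1*, 30.4% ± 1.53 in *pif4-2* and 29.2% ± 2.46 in Col-0, and the share of *PORA* was at most 0.335% in any library.

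*CAO* (AT1G44446, chr1:16848308-16851271 on the minus strand) encodes the oxygenase that turns chlorophyll a into chlorophyll b. It stood at 77.1, 78.05 and 61.01 FPKM in *bbx11-1* and 63.3, 64.97 and 66.99 FPKM in *pif4-2*, against 77.6, 74.5 and 78.05 FPKM in Col-0. The *pif4-2* libraries lay below all Col-0 libraries, while the first and second *bbx11-1* libraries were within the Col-0 range and the third was the lowest of all 9. The log2 fold change in *pif4-2* was −0.24 (95% interval −0.44 to −0.03) with an adjusted p of 0.214 by limma, which does not pass. Over the whole magnesium branch, 0 of the 12 tested genes passed in any comparison. The shares of all tested genes were 0.443% in *bbx11-1* against Col-0, 4.84% in *pif4-2* against Col-0 and 2.32% in *bbx11-1* against *pif4-2*. The median log2 fold change of the 12 genes was −0.11 in *bbx11-1* and −0.03 in *pif4-2*.

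*GLK1* and *GLK2* encode GOLDEN2-like transcription factors that activate chlorophyll and antenna genes. *GLK1* stood at 37.7, 32.6 and 27.8 FPKM in *bbx11-1*, 27.6, 34.7 and 27.99 FPKM in *pif4-2* and 37.9, 30.1 and 37.4 FPKM in Col-0, with overlap of all groups. *GLK2* (AT5G44190, chr5:17798262-17800926 on the plus strand) stood at 64.6, 65.02 and 65.8 FPKM in *bbx11-1*, 48.5, 55.3 and 55.3 FPKM in *pif4-2* and 60.8, 60.2 and 63.4 FPKM in Col-0. The 3 genotypes did not overlap for *GLK2*, since the *bbx11-1* libraries lay above and the *pif4-2* libraries below those of Col-0. By limma the difference was 0.30 in *bbx11-1* against *pif4-2* (95% interval 0.14 to 0.45, adjusted p of 0.0578). It was 0.08 in *bbx11-1* against Col-0 (adjusted p of 0.756) and −0.21 in *pif4-2* against Col-0 (adjusted p of 0.135), and none of these 3 differences passes. *GLK1* made up 33.3% ± 3.59 of the pair in *bbx11-1*, 36.2% ± 2.49 in *pif4-2* and 36.3% ± 2.65 in Col-0.

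*FLU*, which restrains ALA formation in the dark, averaged 71.8 ± 6.84 FPKM in *bbx11-1*, 68.8 ± 1.78 FPKM in *pif4-2* and 76.3 ± 7.52 FPKM in Col-0. *PSY*, phytoene synthase, the entry enzyme of carotenoid synthesis, averaged 143 ± 9.24 FPKM in *bbx11-1*, 153 ± 2.21 FPKM in *pif4-2* and 154 ± 8.88 FPKM in Col-0. Neither passed the test, and the log2 fold changes of *FLU* were −0.09 in *bbx11-1* and −0.14 in *pif4-2*.

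Complete separation of the libraries was counted as well, since small shifts can separate groups without passing the test. In *bbx11-1* against Col-0, 7 of 30 genes did not overlap (12.6% of all tested genes): *HEME1*, *HEME2*, *PPOX1*, *PORB* and *DVR* were lower (5 of 30, against 5.81% of all tested genes), and *FC1* and *GLK2* were higher (2 of 30, against 6.78%). In *pif4-2* against Col-0, 7 of 30 did not overlap (22.3% of all tested genes): *HEMA2*, *HEMB1*, *CHLD* and *FC1* were higher (4 of 30, against 10.2%), and *PORB*, *CAO* and *GLK2* were lower (3 of 30, against 12.1%). In *bbx11-1* against *pif4-2*, 10 of 30 did not overlap (23.3% of all tested genes). Of these, 9 were lower in *bbx11-1* (9.8% of all tested genes), namely *HEMA2*, *GSA1*, *GSA2*, *HEMB1*, *HEMC*, *HEME1*, *HEME2*, *PPOX1* and *PORC*, and *GLK2* was the 1 that was higher (13.5% of all tested genes). Of the 10 genes of ALA formation and of the steps to protoporphyrin IX, joined for this count, 8 were in this set (9.8% of all tested genes). Limma called none of them. The first *bbx11-1* library was the lowest of its genotype for *GSA1*, *GSA2*, *HEMB1* and *HEMC*, so these genes do not count as separate observations. Some groups were barely apart. The highest *bbx11-1* and lowest *pif4-2* values were 19.15 and 19.17 FPKM for *HEMA2*, 110.98 and 111.14 FPKM for *HEMB1*, and 107.63 and 107.9 FPKM for *HEME2*. The gap was wider for *GSA1*, *GSA2*, *HEMC*, *HEME1* and *PPOX1*. Replicates of *pif4-2* were also the tightest, and the part of this in the counts was not tested.

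Part of the spread of these genes lay between replicates and not between genotypes. The median SD of log2 values between replicates over the 30 genes was 0.113 in *bbx11-1*, 0.0463 in *pif4-2* and 0.108 in Col-0, against 0.136, 0.0893 and 0.150 over all tested genes. The first library was the lowest of its genotype in both *bbx11-1* and Col-0 for 11 of 30 genes (18.6% of all tested genes), among them *GSA1*, *GSA2*, *HEMB1*, *HEMC* and *HEMF1*. *HO1* in the first library was at 74% of the mean of the other libraries in *bbx11-1* and at 79.5% in Col-0. *GSA2* was at 83.5% and 80.1%. The first library was the highest in both genotypes for 7 of 30 genes (24.9% of all tested genes), among them *HEMA1*, at 113% in *bbx11-1* and 124% in Col-0, and *GLK1*, at 125% and 112%. Without these first libraries of *bbx11-1* and Col-0, limma again called 0 of 30 genes in *bbx11-1* against Col-0, and *FC1* in *pif4-2* kept a log2 fold change of 0.35 with an adjusted p of 0.0476.

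**Figure D4:**
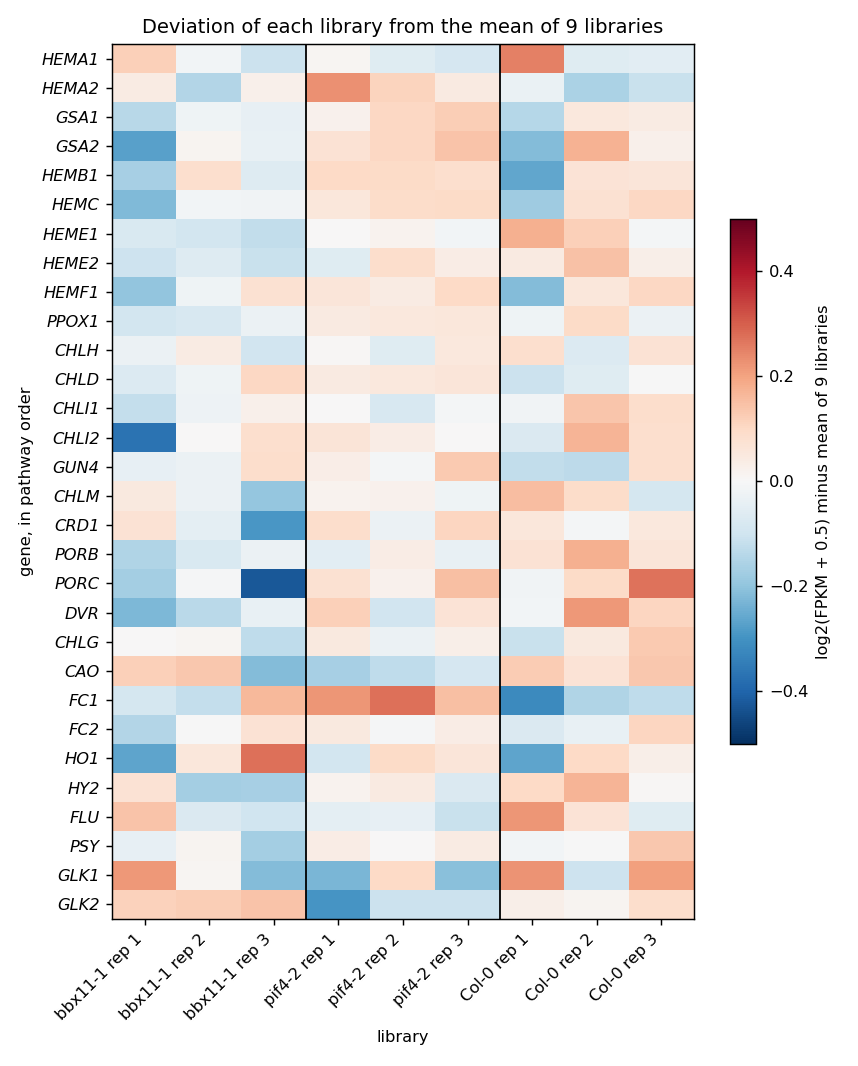
Deviation of each library from the mean of the 9 libraries in log2(FPKM + 0.5), for the 30 tested genes in pathway order, with the libraries of *bbx11-1*, *pif4-2* and Col-0 from left to right; red is above and blue below the mean. The first columns of *bbx11-1* and of Col-0 share blue cells for *GSA1*, *GSA2*, *HEMB1*, *HEMC* and *HEMF1*, the *pif4-2* columns are paler, and the *FC1* row is red in all 3 *pif4-2* libraries.

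Lists of related genes were counted in the same fit. By adjusted p, limma called 0.443% of all tested genes in *bbx11-1* against Col-0, 4.84% in *pif4-2* against Col-0 and 2.32% in *bbx11-1* against *pif4-2*. Of 20 further tetrapyrrole synthesis loci, 16 passed the filter and 0 were called by limma's adjusted p in any of the 3 comparisons. Their median log2 fold changes were −0.01 in *bbx11-1* and −0.02 in *pif4-2* against Col-0. Without adjustment, limma's p was below 0.05 for 2 of them in *bbx11-1* against Col-0 (10.7% of all tested genes), 1 in *pif4-2* against Col-0 (16.6%) and 0 in *bbx11-1* against *pif4-2* (14.9%). Of 10 genes of chlorophyll breakdown and salvage, 9 passed the filter and 0 were called by limma's adjusted p in any of the 3 comparisons. The unadjusted p by limma was below 0.05 for 1 in *bbx11-1* against Col-0, 1 in *pif4-2* against Col-0 and 0 in *bbx11-1* against *pif4-2*. The shares of all tested genes are those given above for each kind of p. The lowest log2 fold changes of this list against Col-0 were those of *CLH1*, a chlorophyllase gene, which stood at 17.5, 22.8 and 20.6 FPKM in *bbx11-1*, 19.3, 22.2 and 22.6 FPKM in *pif4-2* and 27.1, 27.9 and 28.2 FPKM in Col-0. The log2 fold change of *CLH1* in *bbx11-1* was −0.45 with an adjusted p of 0.102 by limma. A fit blocked on replicate gave an adjusted p of 0.0369, which passes. Without the block, leaving out each of the 9 libraries in turn gave an adjusted p of 0.0685 to 0.282 by limma, which never passes. In *pif4-2* the log2 fold change of *CLH1* was −0.37 with an adjusted p of 0.0662 by limma in the reported fit. That adjusted p was 0.0262 without the first and 0.0490 without the second *bbx11-1* library, and 0.0832 to 0.248 without single other libraries. By the F test over the 3 genotypes *CLH1* had an adjusted p of 0.0470, which passes (4.65% of all tested genes).

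Of 18 carotenoid genes, limma called 0 in *bbx11-1* against Col-0 (0.443% of all tested genes) and 1 in *pif4-2* against Col-0 (4.84%), which was *CCD4*, a carotenoid cleavage dioxygenase. *CCD4* stood at 28.1, 30.6 and 28 FPKM in *bbx11-1* and 24.99, 23.3 and 26.96 FPKM in *pif4-2*, against 35.1, 33.6 and 31.98 FPKM in Col-0. It fell in *pif4-2* with a log2 fold change of −0.41 and an adjusted p of 0.01202 by limma, which was 0.0574 without the first and 0.0662 without the second *pif4-2* library. Its value in *bbx11-1* was −0.21 with an adjusted p of 0.349.

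Among 11 regulators of the pathway, which include the mutated genes, limma called 0 in *bbx11-1* against Col-0 (0.443% of all tested genes) and 2 in *pif4-2* against Col-0 (4.84%), *PIF4* itself and *PIF1*, a repressor of chlorophyll synthesis in the dark. *PIF4* fell in *pif4-2* by 0.82 on the log2 scale with an adjusted p of 0.00121 by limma. *BBX11* in *bbx11-1* had a log2 fold change of −1.52 ± 0.46 (SE) with an adjusted p of 0.231 by limma. Without the third Col-0 library it was −0.77 ± 0.126 (SE) with an adjusted p of 0.0675. Every *bbx11-1* library lay below every Col-0 library. In *bbx11-1* against *pif4-2* the log2 fold change of *BBX11* was −0.80, and limma did not call it in the fit of all libraries. Without the third Col-0 library, the adjusted p of *BBX11* in that comparison was 0.00882 by limma, which passes. *PIF1* stood at 19.1, 15.5 and 16.2 FPKM in *bbx11-1* and 12.1, 12.7 and 12.8 FPKM in *pif4-2*, against 17.3, 16.9 and 17.3 FPKM in Col-0. It fell in *pif4-2* with a log2 fold change of −0.44 and an adjusted p of 0.0146, and without overlap of the groups. That adjusted p of *PIF1* was 0.0754 without the first, 0.0546 without the second and 0.0521 without the third *pif4-2* library. In *bbx11-1* against *pif4-2*, 3 of the 11 were higher by limma (2.32% of all tested genes in either direction): *PIF4* with 0.79 (adjusted p of 0.00349), *PIF1* with 0.41 (adjusted p of 0.03405) and *HY5*, a bZIP activator of light-induced genes, with 0.37 (adjusted p of 0.0396). *HY5* stood at 30.5, 29.1 and 31.1 FPKM in *bbx11-1*, against 24.8, 21.9 and 23.1 FPKM in *pif4-2*, and at 29.8, 27.5 and 25.5 FPKM in Col-0. The calls of *PIF1* and *HY5* between the mutants were lost without single libraries. The adjusted p of *PIF1* was 0.0814 and 0.0697 without the first and the third *bbx11-1* library, and 0.103 to 0.155 without single *pif4-2* libraries. That of *HY5* was 0.0508 without the second Col-0 library and 0.0816 to 0.1597 without single libraries of either mutant. *PIF4* passed whichever library was left out.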

How the data were processed

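Reads were aligned by the authors to the TAIR10 build with HISAT2 and counted for each gene with HTSeq. What they deposited is FPKM, for 33602 genes in each of 9 libraries. How FPKM was derived, and the strand setting, are not given in the sources used here. The submitters' processing notes name edgeR 3.0.8, and the fold changes of the study were not used. Depth was read from low values of genes under 500 nt, of which 67.0% to 75.5% per library fell within 0.1 of a whole read (20% by chance). Counting error was not modelled.

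All 9 libraries entered a single fit with limma 3.58.1 (R 4.3.3) on log2(FPKM + 0.5), with lmFit, eBayes and an intensity trend, 6 residual degrees of freedom and Benjamini-Hochberg adjustment over 19169 genes. Paralog shares were compared by exact permutation tests. Values in every library are given for genes past an adjusted p of 0.05, for genes whose mutant and Col-0 libraries did not overlap at a log2 difference of at least 0.3, and for paralog sets, and *CAO*, *CLH1* and the checks on the mutated genes were added after their values were seen. The genes and lists were chosen with earlier results of these data known.

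To see whether replicate numbers paired libraries, deviations from genotype means were correlated over all genes. The correlation was 0.549, 0.287 and 0.275 for *bbx11-1* with Col-0, so same-numbered libraries of these genotypes shared deviations. It was 0.0717, 0.0625 and 0.0217 for *pif4-2* with Col-0, and 0.0921, 0.0264 and −0.0082 for *bbx11-1* with *pif4-2*. The reported fit had no replicate term and so ignored this pairing. With a replicate block, 155 genes in *bbx11-1* against Col-0 had an adjusted p below 0.05 by limma, against 85 in the reported fit. None of the 30 genes was among them in either fit. Alternatives were a replicate block, pseudocounts of 0.1 and 1, other filters and scalings, no intensity trend, fits of only the genotypes compared, and leaving out each library. Positions, overlaps and promoters came from RefSeq TAIR10.1, which matched 32835 of the 33602 identifiers. Summaries and figures used Python 3.11.15, pandas 2.3.3, scipy 1.17.1 and matplotlib 3.10.9.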

Additional observations from a re-analysis of the deposited data

How the results depend on the processing

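The rise of *FC1* in *pif4-2* kept its direction under every alternative. With both thresholds (adjusted p under 0.05, 2-fold) 0 of 30 genes were called in every comparison under every alternative. With the adjusted p alone, the count in *pif4-2* against Col-0 was 0 without the filter on low values and 0 without the intensity trend, because *FC1* then had an adjusted p of 0.0513 and 0.0531 by limma, and it ran from 0 to 1 when single libraries were left out. The range for *FC1* was 0.0180 to 0.0531 over the settings that kept all libraries of the fit or left out the replicate 1 libraries of Col-0 and *bbx11-1* (chosen after seeing the data), and 0.0135 to 0.115 when single libraries were left out. The median log2 fold change of the 30 genes in *pif4-2* against Col-0 ran from −0.025 to 0.023 when single libraries were left out. It was above 0 without the third Col-0 library (0.023) and without the second *pif4-2* library (0.0004). Under median-of-ratios scaling, with or without the replicate block, that median was 0.0015. The replicate block raised the count in *bbx11-1* against *pif4-2* to 1, *GLK2*, with an adjusted p of 0.0365 by limma. Over all 19169 tested genes the block raised that count from 445 to 793. It raised the count past the F test over genotypes to 2, and over all tested genes from 892 to 1315. Same-numbered libraries of the 2 mutants were hardly correlated (0.0921, 0.0264 and −0.0082). The block together with median-of-ratios scaling, also chosen after seeing the data, gave 1 and 1, beside 706 and 1218 of all 19169 tested genes. The block changed no other call of these genes. When single libraries were left out, 0 to 1 genes passed the F test, beside 368 to 975 of all 19169 tested genes. Over all genes the count by adjusted p alone ran from 8 to 155 in *bbx11-1* against Col-0 (85 as reported), from 471 to 1319 in *pif4-2* against Col-0 (927) and from 155 to 897 in *bbx11-1* against *pif4-2* (445), and with both thresholds from 7 to 41 (28), from 173 to 248 (217) and from 74 to 145 (122). Except where a setting tests fewer samples or more genes, the cause of such a change was not tested. Weak genes are limited by depth, as *PORA* is.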
